A study of Mus musculus with 6 samples.

Results

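The genes described here are 9 genes of the red blood cell lineage, among them the globin genes Hbb-y, Hba-x and Hbb-b1, the heme synthesis gene Alas2, the membrane protein genes Slc4a1, Gypc and Rhag, and the membrane skeleton gene Epb4.2. They were chosen by name, and each transcript cluster whose gene symbols include one of them was taken, which gave 9 clusters among 3956. Each cluster groups the exon probe sets of a gene. Whole lateral ventricular choroid plexus of Swiss Webster mice was measured on 6 mouse exon arrays, 3 at embryonic day 15 (E15) and 3 in adults, over 3 months old by the supplementary description. A younger adult age is given for the animals used in morphology. Each E15 array carried RNA from 30 pooled embryos of mixed sex and each adult array RNA from 10 pooled females, by the sample labels. Age and sex therefore cannot be told apart. The study gives other pool sizes elsewhere, larger for embryos and smaller for adults. No genotype or treatment distinguished the groups. The plexus was excised whole, so that epithelium, stroma, vessels and the blood inside them could all contribute RNA. No step that removed blood from the tissue used on the arrays is described in the sources used here.

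Red blood cells carry oxygen on hemoglobin, a tetramer of alpha-like and beta-like globin chains, each holding a heme with an iron atom. The first red cells of the mouse embryo arise in the yolk sac, enter the circulation with their nuclei and make embryonic globins (Hba-x, Hbb-bh1 and Hbb-y), and later red cells from the fetal liver and then the bone marrow make adult globins. Heme synthesis in the lineage starts with its own isoform of 5-aminolevulinate synthase, Alas2. The membrane is held in shape by a mesh of spectrin beneath it, tied to the anion exchanger band 3 (Slc4a1) through ankyrin and protein 4.2, and to glycophorin C through protein 4.1. The reticulocyte, the last stage before the mature cell, still holds RNA.

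The promoters of Hbb-y, Hba-x, the Hbb-b1 cluster and Alas2 are shown because these genes were each at least 2-fold higher at E15 and because their proximal promoters are the textbook example of lineage-restricted control. The sequences are the 150 bases that end just before the start of each gene, 5′ to 3′ along the gene, from RefSeq on GRCm38.p6. Capitals mark a CACCC box, a CCAAT box, a TATAA element or the GATA motif (GATA with A or T before it and A or G after it), on either strand. Adjacent or overlapping matches run together. The cluster of Hbb-b1 is represented by Hbb-bt, the RefSeq name that this symbol now leads to.
Hbb-y, chr7:103853208-103853357, minus strand: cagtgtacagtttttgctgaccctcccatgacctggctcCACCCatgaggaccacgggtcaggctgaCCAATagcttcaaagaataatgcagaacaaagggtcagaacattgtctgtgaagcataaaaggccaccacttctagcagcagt
Hba-x, chr11:32276450-32276599, plus strand: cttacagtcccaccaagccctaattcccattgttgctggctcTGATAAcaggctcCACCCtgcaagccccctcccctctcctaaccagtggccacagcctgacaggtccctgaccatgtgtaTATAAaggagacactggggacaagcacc
Hbb-bt, chr7:103813924-103814073, minus strand: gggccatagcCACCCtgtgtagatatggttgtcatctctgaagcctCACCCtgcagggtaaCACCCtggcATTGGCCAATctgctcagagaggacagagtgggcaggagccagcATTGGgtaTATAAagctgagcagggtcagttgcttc
Alas2, chrX:150547267-150547416, plus strand: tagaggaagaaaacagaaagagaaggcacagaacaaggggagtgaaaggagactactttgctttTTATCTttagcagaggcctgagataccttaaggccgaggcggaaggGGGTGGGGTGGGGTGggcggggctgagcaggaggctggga

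Hbb-y had a CACCC match beginning 111 bases before the start and a CCAAT match at 83. Hba-x had a GATA match at 108, a CACCC match at 95 and a TATAA match at 28, and Hbb-bt had 3 CACCC matches, 3 CCAAT matches and a TATAA match, the last also at 28. Alas2 had a GATA match at 86 and 3 CACCC matches at 40, 35 and 30. Promoter entries were used for 6 of the 9 genes, those shown and those of Rhag and Epb4.2. A filter by chromosome was applied to the entries of the 9, so an entry left out may exist for the remaining genes. Over the whole 250 bases before the start, CACCC was found in 5 of the 6, GATA in 5, TATAA in 4 and CCAAT in 3. Among all 32851 promoter entries of the same length the shares were 52% for CACCC, 26.5% for GATA, 22.8% for TATAA and 33.8% for CCAAT. These are matches of letters and were not tested for binding.

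All 9 clusters were higher at E15 than in adult, and 6 of them at least 2-fold. Of all 3956 clusters, 54.1% were higher at E15 and 24.4% were at least 2-fold higher there. The median difference of the 9, adult minus E15 on the log2 scale, was -2.25, beside -0.16 for all clusters. With the values of each age set to a table median of 0, the median of the 9 was -1.40. The tables hold 1 value for each age and cluster, in which the 3 arrays had been merged, and both values are centred near 0. A value is therefore a position relative to the other age, not a level of expression, and no spread, error or test of its own can be computed from these merged values for any difference here. Fewer red cells in the tissue, less of an RNA in each cell and a change in other plexus cells cannot be told apart in whole tissue. By single-cell PCR the study detected Gypc at both ages in plexus epithelial cells that stained for albumin or plasma protein.

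The 9 clusters came in part from a gene-level table and in part from a table of splicing indices, a score for exons that depart from the whole gene. The gene-level table had been filtered by the authors on a corrected p and on a 2-fold change, so each of its 1805 clusters is at least 2-fold different, with 51.2% higher at E15 and 48.8% higher in adult. The members in it were Hbb-y, Hbb-b1, Hba-x, Slc4a1, Alas2 and Gypc, all on the E15 side, with a median difference of -2.58. The median over all clusters of that table, -1.01, mixes both directions and lies at the edge of the filter, so it is no background for the 6. Among the 925 clusters higher at E15, the 6 ranked from 5th to 270th. Of these 6, all but Gypc, hence 5 of the 9 genes, were at least 4-fold higher at E15, as were 5.84% of all clusters. With each age set to a table median of 0, Hba-x (-1.85), Slc4a1 (-1.61) and Alas2 (-1.40) fell short of 4-fold, leaving Hbb-y and the Hbb-b1 cluster. Rhag and Epb4.2 were held only in the splicing index table, where 56.5% of the 2151 clusters not shared with the other table were higher at E15 and 1.95% at least 2-fold. The median difference of those clusters was -0.13. For the 1218 clusters in both tables the values were identical.

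**Figure D1:**
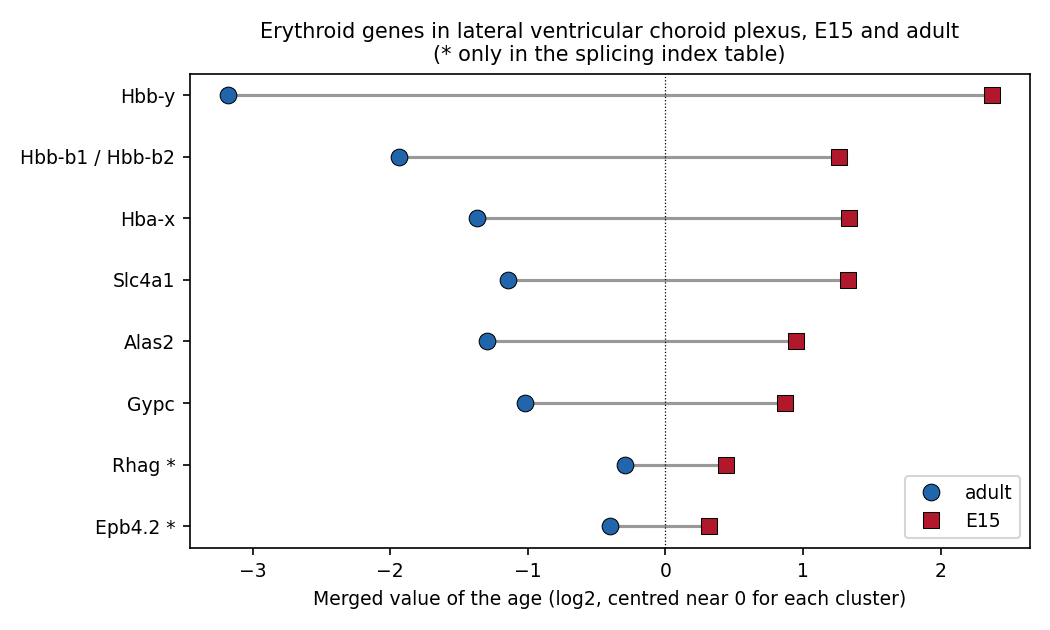
Merged log2 value at E15 (squares) and in adult (circles) for the erythroid clusters described, each centred near 0 and joined by a line whose length is the difference; an asterisk marks genes held only in the splicing index table. Every square lies to the right of its circle, and the lines shorten from Hbb-y (2.37 and -3.18) to Epb4.2 (0.32 and -0.40).

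Among the 9 genes, Hbb-y, Hbb-b1 and Hba-x differed most. Hbb-y, the embryonic beta-like chain (epsilon y), had a value of 2.37 at E15 and -3.18 in adult. Its difference of -5.55, a fold of 46.8, was the 5th largest of the 925 gene-level clusters higher at E15. The cluster of Hbb-b1, an adult beta chain, had a value of 1.26 at E15 and -1.93 in adult. This was a difference of -3.19 and a fold of 9.15, ranked 45th. Hba-x, the embryonic alpha-like chain (zeta), had a value of 1.34 at E15 and -1.37 in adult. This was a difference of -2.70 and a fold of 6.51, ranked 98th. Of these clusters, that of Hbb-y lay farthest apart.

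The differences within the beta-like genes were unequal. The fold of Hbb-y was 5.12 times that of the Hbb-b1 cluster, a gap of 2.36 on the log2 scale. The fourth globin cluster, that of the embryonic chain gene Hbb-bh1 (beta h1), had a value of 0.39 at E15 and -0.49 in adult, a difference of -0.88 from 4 probe sets. It was held only in the splicing index table, and it shares its cluster with a predicted gene. The gap between Hbb-y and Hbb-bh1, the other embryonic beta-like gene, was 4.67. The array names Hbb-b1 and Hbb-b2 for 1 cluster. These adult genes are nearly identical copies, and the difference belongs to the pair; signal may also be shared with other beta-like genes.

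In RefSeq order on GRCm38.p6, the 5 beta-like genes stand in a row on chromosome 7 as Hbb-bt, Hbb-bs, Hbb-bh2, Hbb-bh1 and Hbb-y. Clusters were placed at Hbb-bt, Hbb-bh1 and Hbb-y. That at Hbb-bt is the shared cluster of Hbb-b1 and Hbb-b2, so its difference is not that of Hbb-bt alone. Along the row, from the adult to the embryonic end, the differences of these clusters were -3.19, -0.88 and -5.55. The alpha-like row on chromosome 11 is Hba-x, Hba-a1, Hbq1b and Hba-a2, and only Hba-x had a cluster. The adult alpha genes Hba-a1 and Hba-a2 were looked for and had no cluster. Of 14 globin genes looked for, 5 were found in 4 clusters, all higher at E15, with a median of -2.95. Ngb, a globin of neurons that is not found in red cells, had a difference of 0.08.

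Alas2, the erythroid 5-aminolevulinate synthase that sets the rate of heme synthesis in red cell precursors, had a value of 0.95 at E15 and -1.30 in adult. The difference was -2.25, a fold of 4.76 over 15 probe sets, ranked 164th of the 925. Alas1, the isoform that other cells use for the same step, stood the other way round, with -1.04 at E15 and 1.13 in adult. Its difference of 2.17 was a fold of 4.50 toward adult, so the isoforms were 4.42 apart on the log2 scale. Later enzymes of the pathway differed less. Alad, which joins a pair of aminolevulinate molecules, had a difference of -0.41, and Uros, which closes the ring, 0.06. Of the 9 synthesis enzymes looked for, 5 had clusters, 3 of them higher at E15. At least 2-fold differences were seen in 1 toward E15, Alas2, and 1 toward adult, Alas1, shares near the 24.4% and 22.9% of all clusters. Urod, Cpox, Ppox and Fech were looked for and had no cluster.

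**Figure D2:**
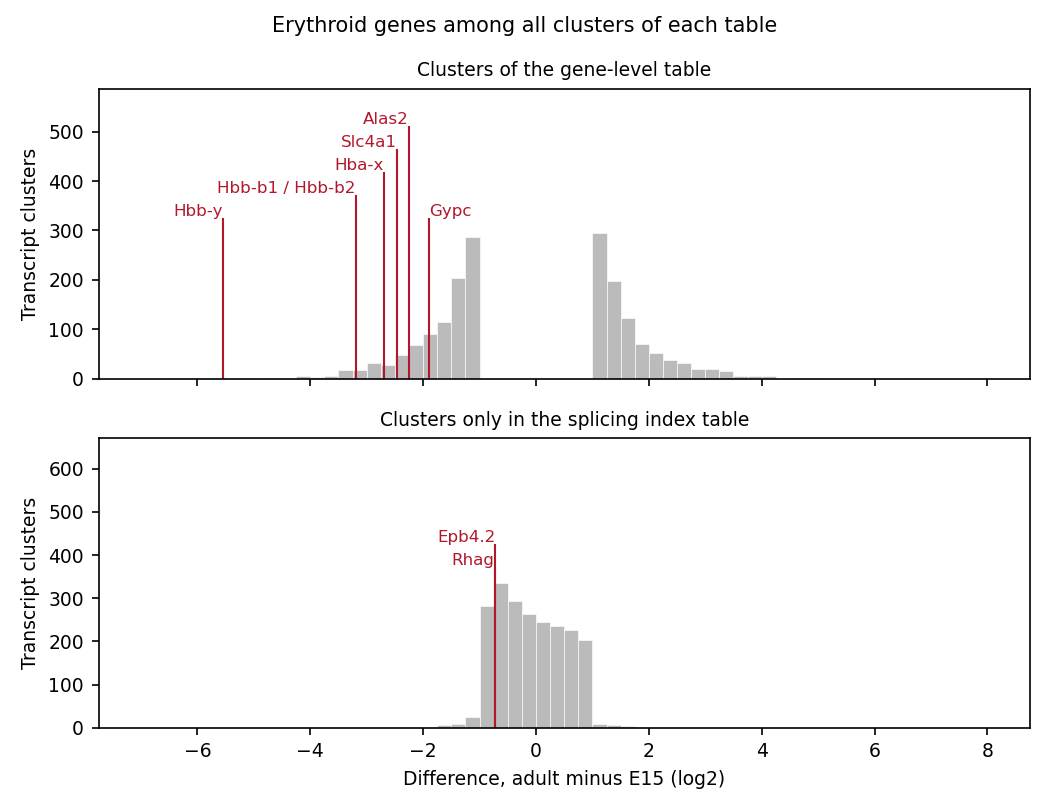
Histograms of the difference, adult minus E15 (log2), over the 1805 clusters of the gene-level table (top) and the 2151 held only in the splicing index table (bottom), with vertical lines at the erythroid clusters whose heights have no meaning. The empty middle of the top panel is the authors' 2-fold filter; Hbb-y lies at -5.55, and Rhag and Epb4.2 lie at -0.73 and -0.72.

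Of the membrane protein genes among the 9, Slc4a1 differed most. It encodes band 3, the chloride and bicarbonate exchanger of the red cell. Its value was 1.32 at E15 and -1.14 in adult, a difference of -2.47 and a fold of 5.53 over 20 probe sets, ranked 123rd. Gypc, glycophorin C, which anchors the skeleton through protein 4.1, had a value of 0.87 at E15 and -1.02 in adult. Its difference was -1.89, a fold of 3.70 over 7 probe sets, ranked 270th. With each age set to a table median of 0 the difference of Gypc was -1.03, just past 2-fold. Rhag, the Rh-associated glycoprotein of the Rh complex, had a value of 0.44 at E15 and -0.29 in adult. This was a difference of -0.73, a fold of 1.66 over 10 probe sets.

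Epb4.2, which encodes protein 4.2 and is now named Epb42, had a value of 0.32 at E15 and -0.40 in adult, a difference of -0.72 and a fold of 1.64 over 13 probe sets. Among the 1216 clusters higher at E15 that were held only in the splicing index table, Rhag ranked 338th and Epb4.2 353rd. The order of the differences is that of the merged values. Without a spread, neighbours in it, such as Rhag and Epb4.2, cannot be said to differ.

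Genes of the red cell membrane and skeleton as a list were split between the ages. Of 25 looked for, 13 had clusters, 10 of them higher at E15 and 3 higher in adult, with a median of -0.61, the members included. Over all clusters 54.1% were higher at E15. At least 2-fold differences were seen in 4 toward E15 and 3 toward adult, or 3 and 3 after the values of both ages were shifted to a table median of 0 (re-centring), near the 24.4% and 22.9% of all clusters. Sparc, which the study set beside Gypc as a possible binder of albumin and which encodes a matrix protein, had a difference of -1.13, a fold of 2.20. Stom, the membrane protein stomatin, also had a difference of -1.13. Re-centring adds 0.85 to the differences of Sparc and Stom, which leaves both short of 2-fold. Rhd, the partner of Rhag, had -0.61, Epb4.1, the gene of protein 4.1, had -0.47, and Kel, the Kell blood group protein, had -0.39.

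Toward adult, Tmod1, which caps the pointed ends of the short actin filaments in the skeleton, stood at 3.06, a fold of 8.36. Mpp1, the palmitoylated protein p55, had 1.32, and the widely expressed surface protein Cd47 had 1.11. Ank1 and Spnb1, the erythroid ankyrin and beta spectrin, were looked for and had no cluster.

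Relatives of the 9 genes were then compared with them, in families written down after the members' values had been seen. The SLC4 family of bicarbonate carriers had 4 clusters. Slc4a1 and the sodium bicarbonate cotransporter Slc4a4 (-2.04) were higher at E15, and the anion exchanger Slc4a2 (0.52) and Slc4a10 (2.32), a sodium-dependent carrier of the plexus epithelium, were higher in adult. The beta spectrins Spnb2, Spnb3 and Spnb4 had differences of 0.30, 0.21 and 0.19. Of the relatives of protein 4.1, Epb4.1l4a (-1.82) and Epb4.1l2 (-1.66) differed more than Epb4.1 itself, and Epb4.1l5 had -0.01, which turned positive after re-centring. The broadly expressed ankyrins Ank2 and Ank3 had -1.43 and 0.44. Protein 4.2 is an inactive member of the transglutaminases, and of its relatives F13a1, the clotting factor subunit also made by macrophages, had -2.76 and Tgm4 had 0.08. Of the mitoferrins, which bring iron into mitochondria, the erythroid form Slc25a37 had -1.29 and the general form Slc25a28 had 0.21.

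**Figure D3:**
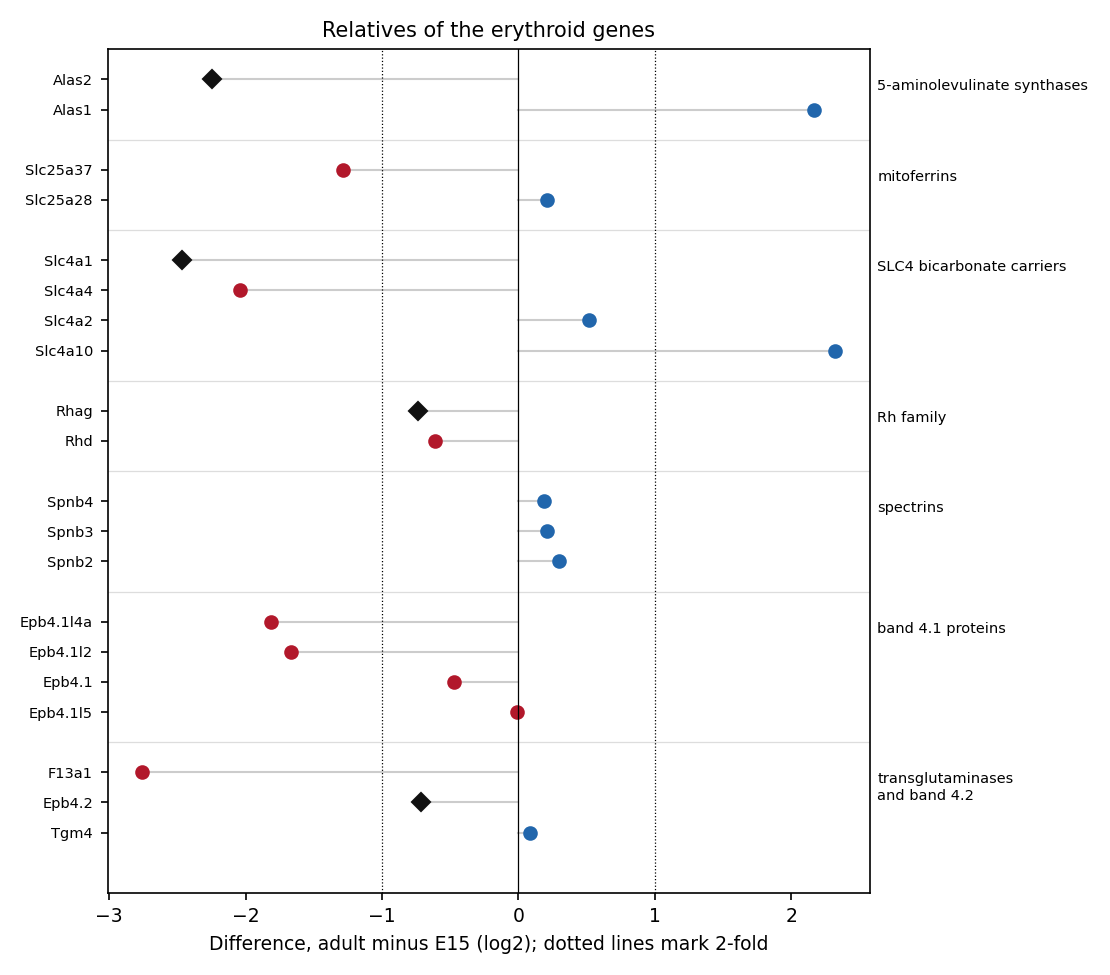
Difference, adult minus E15 (log2), of relatives of the erythroid genes by family; diamonds are erythroid genes of the 9 where they belong to a family, red points are other genes higher at E15, blue points are genes higher in adult, and dotted lines mark 2-fold. Alas2 at -2.25 and Alas1 at 2.17 stand on opposite sides, as do Slc4a1 at -2.47 and Slc4a10 at 2.32; Epb4.1l5 changes sides after re-centring.

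Transcription factors and receptors of the lineage were all on the E15 side, by unequal amounts. Of 17 looked for, 9 had clusters, with a median of -0.68, and 3 were at least 2-fold higher at E15, where 24.4% of all clusters were (2 of the 9 after re-centring). Kit, the stem cell factor receptor of early progenitors and of mast cells and melanocytes, had a difference of -3.02, a fold of 8.13. Myb, a factor of immature blood and other dividing cells, had -2.70, a fold of 6.51. Sox6, which takes part in silencing of Hbb-y, had -1.19. The remaining differences were -0.76 for Ldb1, -0.68 for Lmo2, -0.34 for Lyl1, -0.13 for Gata2, -0.09 for Tal1 and -0.07 for Jak2. Gata2, Tal1 and Jak2 lay closer to 0 than the constant of 0.16 that re-centring adds in their table, so that their side depends on the centring. Gata1, Klf1, Nfe2 and Epor, which mark the erythroid lineage more narrowly, were looked for and had no cluster. Their direction is therefore not known here.

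Genes that handle heme and iron went both ways. Of 27 looked for, 10 had clusters, 6 higher at E15, with a median of -0.65. At least 2-fold differences were seen in 4 toward E15 and 3 toward adult, or 1 and 3 after re-centring. Of all clusters, 54.1% were higher at E15, and 24.4% and 22.9% were at least 2-fold higher at E15 and in adult. Slc40a1, ferroportin, the exporter of iron from cells, had the largest difference toward E15 at -3.26, a fold of 9.56. Abcb6, a porphyrin transporter, had -1.38, and Slc25a37 came next. Toward adult stood Trf, transferrin, with 2.36 and a fold of 5.13, Slc46a1, a carrier of folate and heme, with 1.69, and the iron reductase Steap3 with 1.23. Of 15 other red cell proteins, 5 had clusters, 4 of them higher at E15. At least 2-fold differences were seen in 1 toward E15 and 1 toward adult, or 0 and 1 after re-centring. Cd24a, the heat stable antigen, had -1.45, the antioxidant enzyme Prdx2 -0.49 and the red cell and liver pyruvate kinase Pklr -0.29. Tspan33, a tetraspanin of erythroblasts, had 1.95 toward adult.

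Over all 6 erythroid lists, 37 clusters other than the 9 were found. Of these 27 were higher at E15 and 10 higher in adult. At least 2-fold differences were seen for 10 at E15 and 8 in adult, where 24.4% and 22.9% of all clusters passed the same fold. With re-centring, which adds 0.85 to gene-level differences and 0.16 to those of the splicing index table, these counts were 4 and 8. The gene-level table has no cluster between the 2-fold limits, so its median lies at the edge of that filter and the shift of 0.85 follows from the slightly unequal numbers on both sides. The median of the 37 was -0.41. The 9 genes kept their direction and 6 remained past 2-fold.

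**Figure D4:**
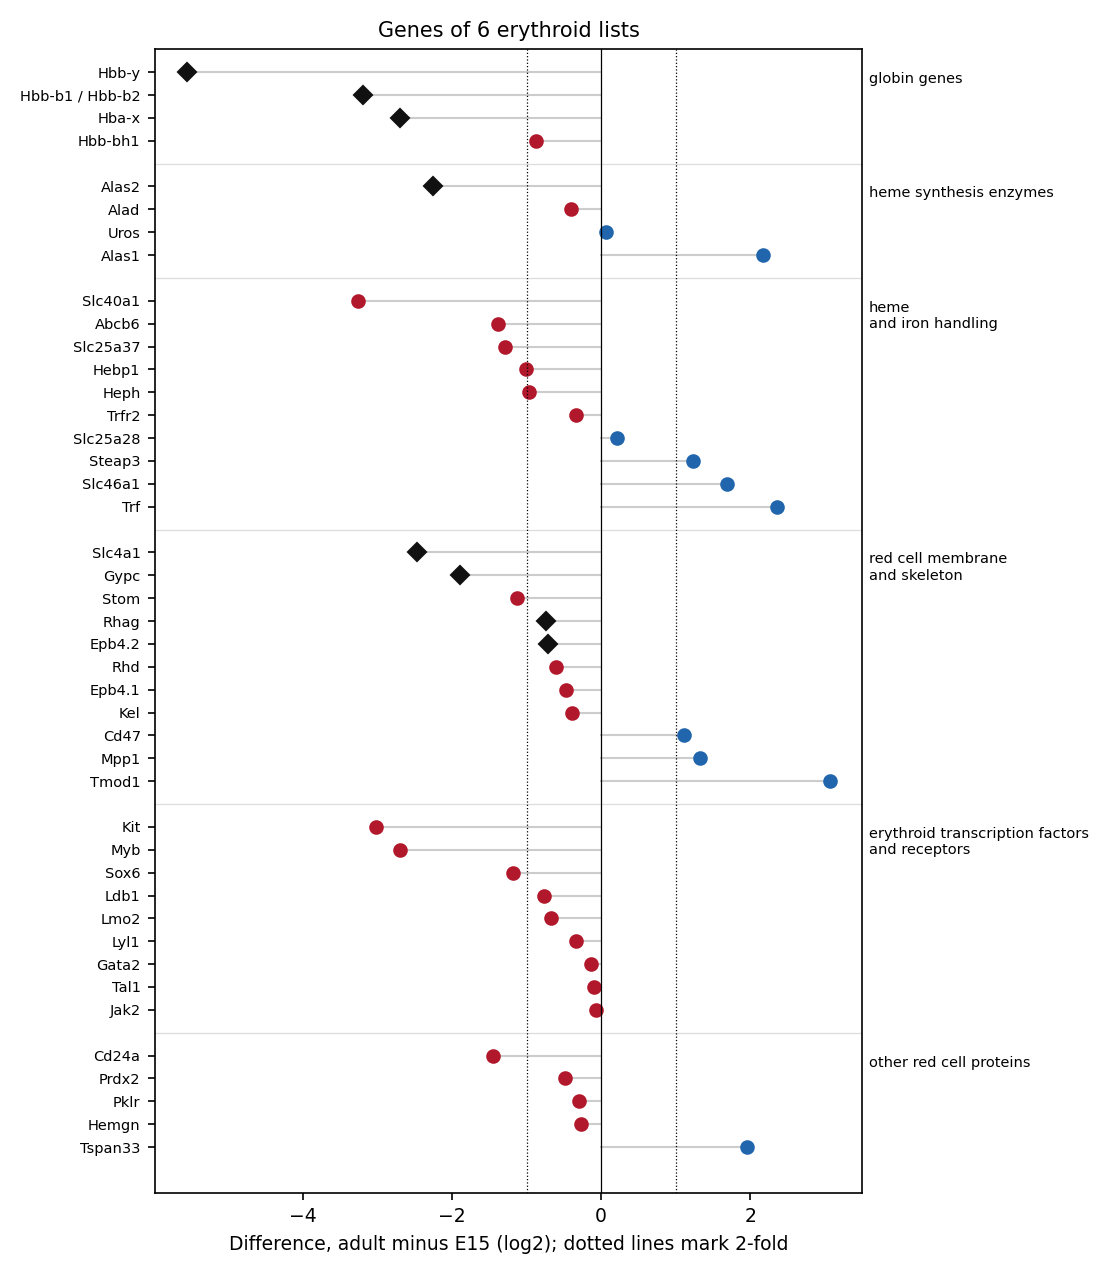
Difference, adult minus E15 (log2), of named clusters of the 6 erythroid lists; black diamonds are genes of the 9, red points other genes higher at E15, blue points genes higher in adult, and dotted lines mark 2-fold. The 4 globin clusters all lie left of 0, between -5.55 and -0.88, whereas the membrane list runs from -2.47 for Slc4a1 to 3.06 for Tmod1; Gata2, Tal1 and Jak2 change sides after re-centring.

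Markers of other cell types in the plexus moved with age as well. All 9 endothelial clusters found, of 17 genes looked for, were higher at E15, with adult values from -1.17 to -0.14 and E15 values from 0.37 to 1.12. Their median was -1.10, and 6 were at least 2-fold higher at E15, where 24.4% of all clusters were and 54.1% were higher by any size. The largest were VE-cadherin (Cdh5, -2.10), Ets1 (-1.78) and Pecam1 (-1.48). After re-centring, all 9 were still higher at E15 and 1 was past 2-fold. The part of vessels in the erythroid differences was not tested.

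Platelet and leukocyte markers were scarcely held. Of 13 platelet genes 3 had clusters, Pf4 at -0.91, Itga2b at -0.47 and a cluster of Gp1bb shared with Sept5 at 0.19. Of 15 leukocyte genes only Ptprc (CD45) did, at -0.15, on the adult side after re-centring. Macrophage and antigen presentation genes were divided, with Mrc1 (-2.36), Csf1r (-0.92) and Cx3cr1 (-0.81) higher at E15 and the MHC class II genes Cd74 (3.16), H2-Aa (2.53) and H2-Ab1 (1.56) among the 4 higher in adult.

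Markers of the plexus epithelium were looked up, although values centred for each cluster cannot check the labelled tissue. Of 23 genes looked for, 10 were found in 11 clusters, 9 of them higher in adult, with a median of 0.88. The largest were the prolactin receptor Prlr (7.87), with a second cluster shared with Agxt2 (6.60), and Kl (4.78), the gene of klotho. Toward E15 stood the roof plate factor Lmx1a (-1.14) and Foxj1 (-1.02), a factor of ciliated cells. Ttr, the defining secretory product of the plexus, had no entry.

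**Figure D5:**
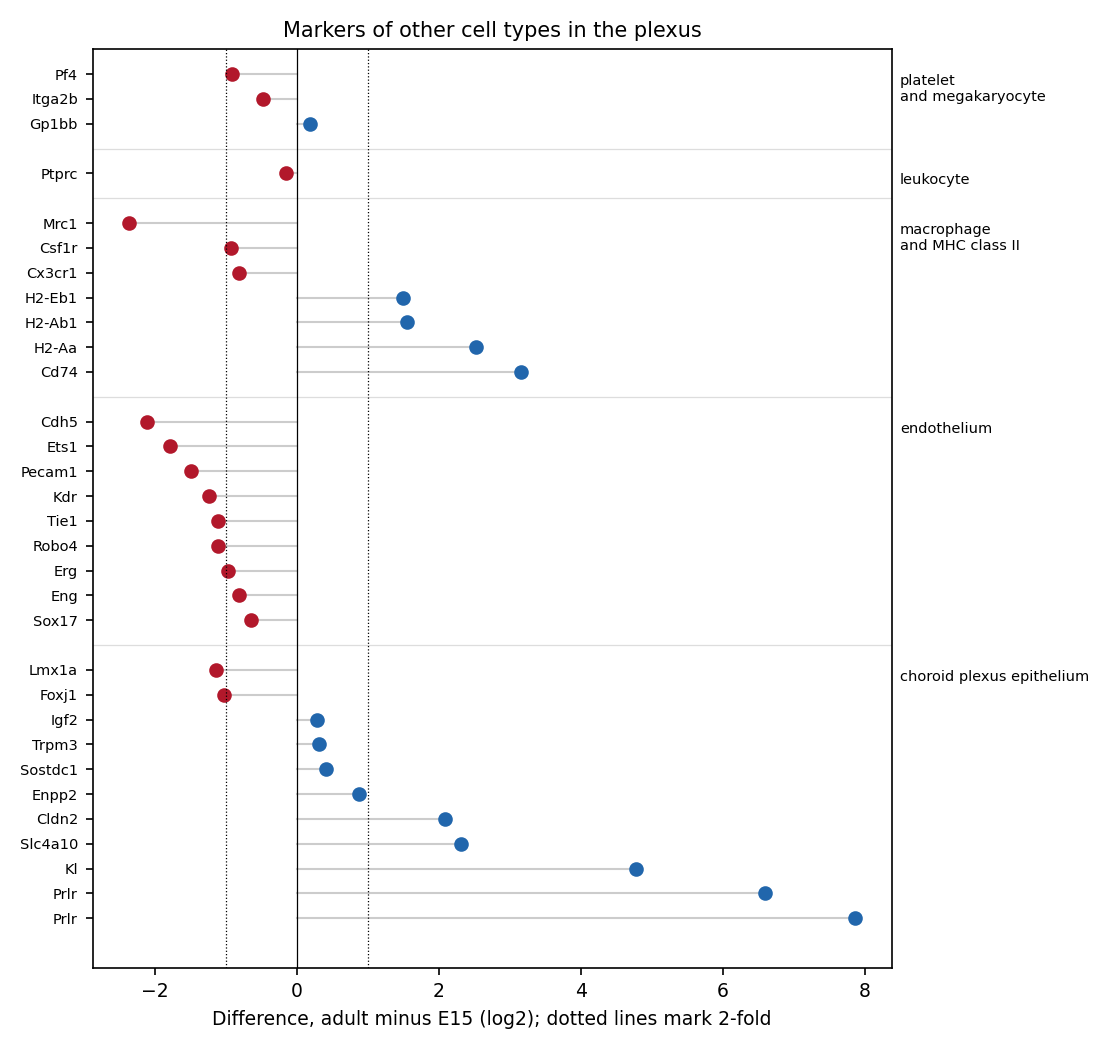
Difference, adult minus E15 (log2), of markers of other cell types, grouped by type; red points are clusters higher at E15, blue points clusters higher in adult, and dotted lines mark 2-fold. All 9 endothelial points lie left of 0, from -2.10 for Cdh5 to -0.64 for Sox17, and 9 of 11 plexus epithelium points lie right of it; Ptprc changes sides after re-centring.

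The ontology text that the tables give for each cluster was searched for terms that describe the 9 genes. Hemoglobin complex was found for 4 clusters, the same 4 globin clusters, and oxygen transport for 5, of which 4 were higher at E15. Heme binding was wider, with 22 clusters, 13 of them higher at E15, and at least 2-fold differences in 6 toward E15 and 6 toward adult. Each of these 3 terms counts Hbb-y, Hbb-b1 and Hba-x, all past 2-fold at E15. The terms were chosen for the 9 genes, so these counts are no separate support for them. Erythrocyte differentiation named 14 clusters, with 10 higher at E15. At least 2-fold differences were seen in 1 toward E15, Alas2, and 1 toward adult. Hemopoiesis was found for 12, 2 of them from the 9 genes, with 8 higher at E15. At least 2-fold differences were seen in 5 toward E15 and 2 toward adult. Over all clusters the shares past 2-fold were 24.4% toward E15 and 22.9% toward adult. Iron ion transport, found for 11 clusters, had 5 higher at E15 and 6 higher in adult, with at least 2-fold differences in 2 toward E15 and 5 toward adult. Gypc carries no term in the tables and enters none of these counts.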

How the data were processed

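RNA of 6 pools of lateral ventricular choroid plexus was amplified in 2 rounds, labelled and hybridized to mouse exon arrays. Per the labels and the methods, the authors normalized the arrays by RMA with Affymetrix Power Tools (versions not given in the sources used here), merged the 3 arrays of each age and deposited log2 values centred near 0 for each cluster. The gene-level table holds clusters that passed a corrected p of 0.05 and a fold of 2, after a filter that kept the more highly expressed genes. Exon-level data for the splicing index table were normalized by the authors with PLIER and filtered on detection above background, and the table holds clusters that passed a corrected p of 0.05 and an index of at least 0.5. These filters decide which genes have a cluster. Columns of the authors' fold change, direction, splicing index and a further table of clusters common to both were not used. The genome build of the array annotation was not given in the sources used here.

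Differences were computed as adult minus E15 and folds as 2 to the size of the difference. Clusters were matched to genes by whole symbols. A count was taken past 2-fold, since 0 columns of the tables used hold a single array and no test across arrays could be run from them. Raw array files, which the study describes, were not used here. The 3 pools are separate samples, but their spread was merged away. The members and lists were chosen with earlier results of these data known, and 11 gene families were written after the members' values were seen. The genes named are the members, every found gene of the globin, heme synthesis, transcription factor and membrane lists, the 3 largest clusters in each direction of the other lists, and Sparc, except 3 genes that are counted in the lists and not reported here. Relatives in families, Ngb and the end points of a plot were named besides. Promoters were searched over 250 bases before the start. Counting was tested on simulated data. The alternatives were folds of 3 and 4, clusters with several symbols left out, each table alone, the largest cluster of a gene and re-centring. Values and counts that changed over 1.5 times were called moved. Python 3.11.15 and matplotlib 3.10.9 were used.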

Additional observations from a re-analysis of the deposited data

How the results depend on the processing

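The count of erythroid genes at least 2-fold higher at E15 was 6. It was 5 without clusters of several symbols, 6 at a fold of 3, 5 at a fold of 4 and 4 of 7 in the splicing index table alone, and 6 after re-centring each age on the median of its table. Re-centring moved the median of the 9 genes from -2.25 to -1.40, and the differences of Alas2, Slc4a1 and Gypc to -1.40, -1.61 and -1.03, and reversed none of the 9. The median of the other red cell clusters, -0.41, was -1.07 in the gene-level table alone, which holds only clusters past 2-fold, and -0.23 after re-centring. Their count past the threshold at E15, 10, was 4 at a fold of 3, 4 at a fold of 4 and 4 after re-centring. The count in adult, 8, was 5 at a fold of 3 and 3 at a fold of 4. No paired analysis was possible because the tables hold 1 merged value for each age, so the shared replicate numbers of the labels cannot be used. For the same reason the replicate block, the omission of each array in turn and a limma fit were not run. Signal over background cannot be read from centred values.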

Other observations

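The authors' values of a cluster nearly cancel, their sum having a median size of 0.10 over the 1805 gene-level clusters. For Hbb-y the size of this sum was 0.81, reached by 6 clusters (0.332%), and for the Hbb-b1 cluster it was 0.67, reached by 16 (0.886%). Alas2 followed with 0.35, reached by 127 (7.04%), and Slc4a1, Gypc and Hba-x had 0.18, 0.16 and 0.03. In the first 3 the adult value lay farther from 0 than the E15 value. How the centring was done is not stated in the sources used here, and what sets the sum was not tested. Blood vessel development was an ontology term of 15 clusters, 11 of them higher at E15, with at least 2-fold differences in 5 toward E15 and 2 toward adult, and the largest, 4.21, toward adult. Iron ion homeostasis was found for 6, of which 2 were higher at E15, Alas2 among them, with at least 2-fold differences in 1 toward E15 and 1 toward adult. Of all clusters, 54.1% were higher at E15, and 24.4% and 22.9% were at least 2-fold higher at E15 and in adult.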
